A study of Mus musculus with 6 samples.

Results

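H3K27ac was examined around 9 genes of the Sall, Lin28 and Myc families and their dimerization partners in mouse embryonic stem cells (ESCs). The cells were examined before and 1.5 h after the addition of auxin, which triggers degradation of OCT4. The genes were Sall1, Sall4, Lin28a, Lin28b, Myc, Mycn, Mycl, Max and Mga. A peak was assigned to a gene where it overlapped the gene body (GENCODE vM21, GRCm38) or the 20 kb on either side of it. This gave 32 of the 31131 peaks of the series, in the windows of 7 of the 9 genes. No peak lay in the window of Myc or Lin28b. Over all protein-coding genes, 15149 of 21951 (69.0%) had a peak in the same kind of window.

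SALL4 and SALL1 are zinc finger transcription factors that are present in pluripotent cells and recruit the NuRD histone deacetylase complex. LIN28A and LIN28B are RNA-binding proteins that block the maturation of let-7 microRNAs, which accumulate as cells differentiate. MYC, MYCN and MYCL bind DNA at E-box sequences only as dimers with MAX, and MGA, a large protein that also dimerizes with MAX, is the scaffold of the repressive complex PRC1.6. H3K27ac, acetylation of lysine 27 of histone H3, marks active promoters and enhancers.

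All 6 libraries came from O4AID ESCs of the 129SV strain, derived from ZHBTc4 cells, and carried the same alleles in both groups. These were Oct4-/-, the loss of both endogenous alleles, a TetOFF Oct4 transgene kept silent by doxycycline, CAG Oct4AID, which supplies OCT4 fused to an auxin-inducible degron, and CAG Tir1, which supplies the TIR1 protein that recognizes the degron. CAG is a ubiquitous promoter. Cells of both groups grew in N2B27 medium with PD03, Chiron and mLIF, and in doxycycline. The uninduced group had 3 libraries and the IAA group, in which 500 μM of the auxin indole-3-acetic acid had been added for 1.5 h, had 3 libraries. The libraries are separate immunoprecipitations (IPs), and the sources used here do not state that they came from separate cultures, so p-values measure only the spread between these IPs. A peak was called OCT4-marked where the authors placed it within 1 kb of an OCT4 site found in another ESC line, V6.5, not in these cells.

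The libraries held 31634480 to 39547452 reads, of which 6.63% to 7.12% fell in peaks in the uninduced group and 4.05% to 5.15% in the IAA group, with IAA replicate 3 the lowest. Since RPKM scales to the whole library, this moved most peaks together, and the log2 of the median tested peak changed by -0.58. No spike-in was used here, so a loss of the mark and a less efficient IP cannot be told apart in that common shift, and neither can fewer cells that carry the mark and less of it per cell. Changes are therefore given both as deposited and after subtracting the median peak, library by library. A tested peak lay within 1 kb of a transcription start for 8 of 8 ESC identity genes (among them Nanog, Sox2 and Esrrb) and for 4 of 11 genes of other lineages (Gata6, Sox1, Pax6 and Mesp1), with none at Gata4, Sox17, Cdx2, Eomes, Elf5, Neurod1 or T.

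H3K27ac fell in the windows of all 7 genes that had peaks, most at Sall4 and next at Mycn. At Lin28a the only peak, and at Mga the only peak that passed its own test, lay at the start of a neighbouring gene. The value of a gene was the mean RPKM of the peaks in its window, weighted by their length. It is a mean height, whatever stretch the peaks cover (9679 bp at Sall1 and 2773 bp at Sall4). Peaks at neighbouring genes are included. By limma with Benjamini-Hochberg adjustment over 14154 protein-coding genes, 7 of 7 genes were lower and 0 were higher, against 89.4% lower and 0.0707% higher among all tested genes. The values of all IAA libraries lay below those of all uninduced libraries at 6 of 7 genes, against 84.9% of tested genes. The median log2 change over the 7 genes was -0.65, and over all tested genes it was -0.54, with quartiles of -0.64 and -0.45. Each library centred on its median tested gene, Sall4 alone remained lower, against 1.37% of tested genes, and the direction at Lin28a and Mga turned. Without uninduced replicate 1 or without uninduced replicate 3, limma called 5 of 7 genes, the calls at Lin28a and Mga being lost. It called 6 of 7 without uninduced replicate 2, where Mga was lost, and 6 of 7 without IAA replicate 3, where Lin28a was lost.

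**Figure D1:**
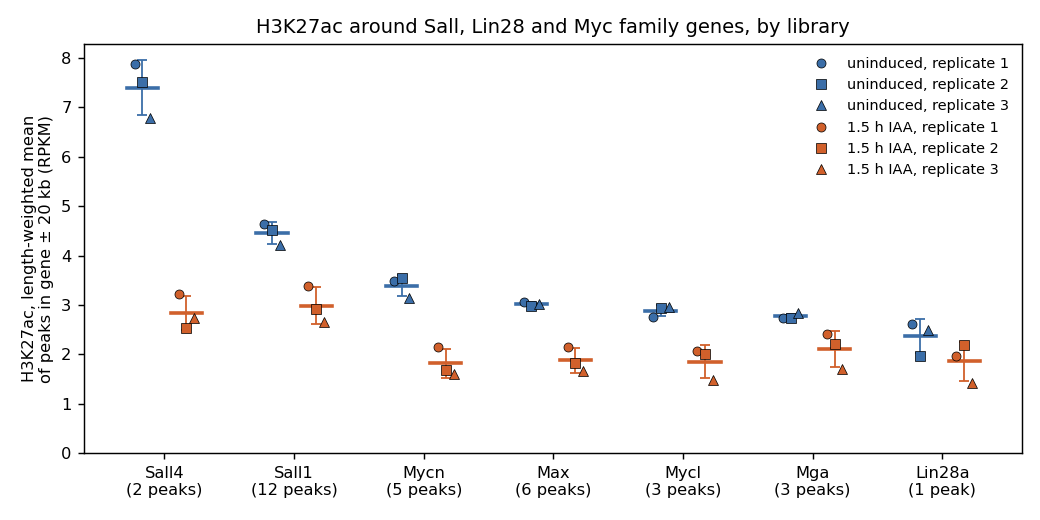
H3K27ac (RPKM, vertical axis from 0) around each gene with a peak, in the 3 uninduced (blue) and 3 IAA (orange) libraries. Points are libraries, horizontal bars are means and vertical bars are SDs (n = 3). The IAA points lie below every uninduced point at 6 of 7 genes and overlap at Lin28a.

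Sall4 (chr2:168748332-168767943, minus strand) had the highest window mean of the 7 genes with peaks in uninduced cells and the largest fall. Its window mean was 7.88, 7.51 and 6.78 RPKM in uninduced replicates 1, 2 and 3, and 3.22, 2.54 and 2.75 RPKM in IAA replicates 1, 2 and 3. The groups were far apart and the IAA mean was 38.4% of the uninduced mean (2.84 ± 0.351 against 7.39 ± 0.559 RPKM, SD, n = 3). The log2 change was -1.39 (SE 0.149, limma adjusted p = 4.0e-15), and 23 of 14154 genes fell further. Relative to the median peak the log2 change was -0.80, with all IAA libraries again below all uninduced ones, and with each library centred on its median gene the limma estimate was -0.83 (adjusted p = 0.00263). The uninduced level exceeded that of 99.5% of tested genes.

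Both Sall4 peaks lay in the first part of the gene and both were OCT4-marked. The larger one (chr2:168765010-168767119, in the UTR, with its centre 1.88 kb from the gene's 5′ end) covered an annotated start but ended short of that 5′ end. Starts of Sall4 and of the noncoding gene Gm14261 lay within 1 kb of this peak. It held 8.24, 8.23 and 6.75 RPKM in the uninduced libraries and 3.43, 2.59 and 3.06 RPKM in the IAA libraries, a log2 change of -1.33 (SE 0.159, limma adjusted p = 2.15e-05). The other (chr2:168763813-168764477) lay in an intron, 3.80 kb from the 5′ end and 769 bp from an internal start. It held 6.74, 5.24 and 6.88 RPKM in the uninduced libraries and 2.56, 2.38 and 1.74 RPKM in the IAA libraries, and its log2 change of -1.46 (SE 0.175, limma adjusted p = 2.15e-05) was the largest of the 32 peaks. The IAA values of both peaks were less than the lowest uninduced value by a wide margin, and only 0.42% of tested peaks reached as low a change as the intronic one. With the libraries centred on the median tested peak, both remained lower (limma adjusted p = 0.00369 for the intronic peak and 0.00575 for the other).

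The central 300 bases of the intronic Sall4 peak are shown because this OCT4-marked peak fell most. The sequence was read from the RefSeq GRCm38.p6 assembly and lies in an intron of Sall4. It contains neither of the motifs that were searched for, so all of it is in lower case.
Sall4 intronic peak, chr2:168763996-168764295, plus strand: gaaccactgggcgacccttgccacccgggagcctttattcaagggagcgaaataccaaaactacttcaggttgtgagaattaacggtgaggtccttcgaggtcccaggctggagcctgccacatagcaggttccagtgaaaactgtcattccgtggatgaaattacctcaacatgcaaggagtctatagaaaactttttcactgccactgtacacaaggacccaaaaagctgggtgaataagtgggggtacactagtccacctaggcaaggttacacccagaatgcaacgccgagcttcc

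Sall1 (chr8:89027235-89044162, minus strand) had 12 peaks, the most of any gene here, and they fell by about as much as the median peak. Its window mean was 4.64, 4.51 and 4.22 RPKM in the uninduced libraries and 3.38, 2.93 and 2.65 RPKM in the IAA libraries. The groups did not overlap, and the log2 change was -0.58 (SE 0.150, limma adjusted p = 0.000487). Set against the median peak the change was -0.0014, and the libraries of the groups overlapped (p = 0.9 by exact permutation of the 20 labellings, two-sided).

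The 12 Sall1 peaks all fell, with log2 changes from -0.71 to -0.40, and 2 of them were OCT4-marked. A cluster of 5 unmarked peaks, centred 27.4 to 32.18 kb downstream of the start and beyond the 3′ end of the gene, had a mean of 4.65 ± 0.323 RPKM (SD, n = 3) in uninduced cells and 3.12 ± 0.476 RPKM after IAA. The 3 peaks nearest the start, with centres at 0.07, 0.85 and 2.53 kb, were higher, at 6.15 ± 0.593 RPKM in uninduced cells and 4.31 ± 0.616 RPKM after IAA. The one at 2.53 kb, the longest of them (1568 bp), lay in a coding exon, 1745 bp from the nearest annotated start. The log2 change was -0.59 in the downstream cluster and -0.52 in these 3 peaks. IAA replicate 3 was the lowest library in the downstream cluster (2.58 RPKM) and IAA replicate 2 the lowest in these 3 peaks (3.69 RPKM). The peak at 0.85 kb, in an intron, had the smallest change (-0.40, SE 0.168, limma adjusted p = 0.0426) and was the one Sall1 peak whose groups overlapped, with 6.54, 6.69 and 5.60 RPKM in the uninduced libraries and 4.97, 3.69 and 5.73 RPKM in the IAA libraries.

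The remaining Sall1 peaks lay on both sides of the gene. The OCT4-marked peak at -8.88 kb, upstream of the start, went from 4.0 ± 0.160 to 2.54 ± 0.486 RPKM (log2 change -0.66, limma adjusted p = 0.00483). The peak farthest upstream, at -19.96 kb, was the lowest in uninduced cells (2.73 ± 0.228 RPKM) and had the largest fall of the 12 (log2 change -0.71, SE 0.190, limma adjusted p = 0.00591). Downstream, the narrow unmarked peak at 21.9 kb (chr8:89022120-89022411) went from 3.01 ± 0.285 to 1.83 ± 0.229 RPKM (log2 change -0.69, SE 0.174, limma adjusted p = 0.00413). The peak at 18.2 kb lay 655 bp from the start of the microRNA gene Mir8110 and went from 3.17 ± 0.156 to 2.13 ± 0.583 RPKM. With the libraries centred on the median tested peak, 0 of the 12 peaks were called by limma, and 0 were lower and 0 higher at an unadjusted p under 0.05.

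Lin28a (chr4:134003330-134018841, minus strand) had a single peak in its window, and that peak was not at the promoter of Lin28a. It lay 2.4 kb from the 3′ end of the gene (chr4:134000347-134000956), in the UTR at the start of Dhdds, which encodes a subunit of an enzyme of dolichol synthesis. It held 2.62, 1.97 and 2.50 RPKM in the uninduced libraries and 1.97, 2.18 and 1.42 RPKM in the IAA libraries. IAA replicate 2 was above uninduced replicate 2, so the groups overlapped (p = 0.3 by exact permutation, two-sided). As a gene, Lin28a passed the test (log2 change -0.36, SE 0.167, limma adjusted p = 0.0372 over genes), whereas the peak itself did not (-0.34, SE 0.197, limma adjusted p = 0.120 over peaks). The gene value is this single peak, so both tests used the same values in each library. They differ only in the small number added to RPKM, in limma's variance estimates and in the set adjusted over. The pass as a gene is thus no evidence beyond the peak. The call on the gene was lost without uninduced replicate 1, without uninduced replicate 3 and without IAA replicate 3, and without the last the change was -0.18. Set against the median peak, the direction turned (0.22).

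Lin28b (chr10:45376620-45486395, minus strand) had no peak in its window. The nearest peak was 123.7 kb away, in Popdc3 (chr10:45252198-45252889), and was OCT4-marked. It was low, at 0.549, 0.778 and 0.710 RPKM in the uninduced libraries and 0.424, 0.481 and 0.459 RPKM in the IAA libraries. The log2 change of -0.48 did not pass the test (SE 0.279, limma adjusted p = 0.123).

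Myc (chr15:61985391-61990374, plus strand) likewise had no peak within 20 kb. The nearest peak was 48.4 kb away, inside the noncoding gene Pvt1 (chr15:62038752-62039760), and was OCT4-marked. It held 1.76, 1.54 and 1.97 RPKM in the uninduced libraries and 1.13, 1.37 and 1.26 RPKM in the IAA libraries. These groups did not overlap, but the log2 change of -0.45 missed the threshold (SE 0.205, limma adjusted p = 0.0574).

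Mycn (chr12:12936093-12941914, minus strand) showed the second largest fall, and all 5 of its peaks were lower. Its window mean was 3.48, 3.54 and 3.15 RPKM in the uninduced libraries and 2.16, 1.70 and 1.61 RPKM in the IAA libraries, with no overlap. The IAA mean was 53.8% of the uninduced mean, a log2 change of -0.90 (SE 0.157, limma adjusted p = 9.9e-07), and 472 of 14154 genes fell further. Relative to the median peak the change was -0.32, again with no overlap between the groups, and with the libraries centred on the median gene limma gave an adjusted p of 0.0554.

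The Mycn peaks included 3 OCT4-marked ones. The peak that fell most (chr12:12941024-12941780, in the UTR at the start) was one of these, with 3.65, 3.39 and 3.31 RPKM in the uninduced libraries and 1.43, 1.47 and 1.6 RPKM in the IAA libraries. The IAA libraries lay close together there, and the log2 change was -1.15 (SE 0.169, limma adjusted p = 0.000101, or 0.0566 with the libraries centred on the median tested peak). The marked peak just upstream of the start, at -0.79 kb, went from 3.22 ± 0.367 to 1.75 ± 0.364 RPKM, and the marked one at 14.36 kb, beyond the 3′ end, from 1.83 ± 0.261 to 0.972 ± 0.157 RPKM, both with a log2 change of -0.85. The unmarked peaks were in a coding exon (4.16 ± 0.472 to 2.15 ± 0.657 RPKM, log2 change -0.96) and in the UTR at 2.18 kb (4.32 ± 0.156 to 2.55 ± 0.608 RPKM, log2 change -0.76). All 5 changes were larger than that of the median peak.

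Mycl (chr4:122995652-123002485, plus strand) had peaks of its own that fell and a peak at a neighbouring gene that fell less. Its window mean was 2.75, 2.93 and 2.96 RPKM in the uninduced libraries and 2.07, 2.02 and 1.48 RPKM in the IAA libraries (log2 change -0.65, SE 0.160, limma adjusted p = 0.000311). The groups did not overlap, but relative to the median peak they did (change -0.07, p = 0.5 by exact permutation, two-sided). The peak at the start (chr4:122996249-122996774) went from 2.94 ± 0.632 to 1.6 ± 0.469 RPKM, a log2 change of -0.85 (SE 0.211, limma adjusted p = 0.00373). The OCT4-marked peak at 5.21 kb (chr4:123000266-123001462) went from 2.40 ± 0.412 to 1.30 ± 0.192 RPKM, a log2 change of -0.83 (SE 0.20, limma adjusted p = 0.00319). The third peak covered the start of Trit1, which encodes a tRNA-modifying enzyme, and its log2 change of -0.37 missed the threshold (3.43 ± 0.151 to 2.66 ± 0.497 RPKM, limma adjusted p = 0.0571). Without the Trit1 peak the change at Mycl was -0.89.

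Max (chr12:76937269-76962201, minus strand), the common partner of the MYC and MXD proteins, had 6 peaks, of which 4 were lower. Its window mean was 3.06, 2.98 and 3.01 RPKM in the uninduced libraries, which were almost identical, and 2.16, 1.82 and 1.67 RPKM in the IAA libraries. The log2 change was -0.69 (SE 0.158, limma adjusted p = 0.000146). Set against the median peak it was -0.11, with no overlap between the groups (p = 0.1 by exact permutation, which is the lowest value this design can give), but limma on libraries centred on the median gene gave an adjusted p of 0.495.

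The largest falls in the Max window were upstream of the start, at 2 OCT4-marked peaks. The peak at -3.36 kb held 3.03, 4.05 and 2.89 RPKM in the uninduced libraries and 1.47, 1.88 and 1.67 RPKM in the IAA libraries (log2 change -0.94, SE 0.183, limma adjusted p = 0.000847). The peak at -4.08 kb went from 3.15 ± 0.791 to 1.65 ± 0.0637 RPKM (log2 change -0.86, SE 0.189, limma adjusted p = 0.00181). The unmarked peak at the start was the highest of the window, at 4.55 ± 0.604 RPKM before and 2.87 ± 0.310 RPKM after IAA (log2 change -0.65). The intronic peaks at 6.96 and 16.99 kb did not pass the test (limma adjusted p = 0.0644 and 0.0515), and their groups overlapped. The third OCT4-marked peak, at 42.32 kb, overlapped a UTR of the neighbouring gene Fntb and was lower by -0.57 on the log2 scale (SE 0.210, limma adjusted p = 0.0246).

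Mga (chr2:119897228-119969581, plus strand) changed less than most genes, 11841 of 14154 genes falling further. Its window mean was 2.74, 2.75 and 2.83 RPKM in the uninduced libraries and 2.41, 2.22 and 1.70 RPKM in the IAA libraries. The groups did not overlap and the gene passed the test (log2 change -0.41, SE 0.158, limma adjusted p = 0.0131), but relative to the median peak the direction turned to 0.17. The call was lost when any 1 of the uninduced replicates was left out, and without IAA replicate 3 the change was -0.26. None of its 3 peaks was OCT4-marked. The peak at the start of Mga, with 4.06, 3.94 and 3.83 RPKM in the uninduced libraries and 3.61, 3.16 and 2.54 RPKM in the IAA libraries, missed the threshold (log2 change -0.35, SE 0.164, limma adjusted p = 0.0633). So did the peak at 89.19 kb, in an intron of the neighbouring gene Mapkbp1, with 1.54 ± 0.201 RPKM before and 1.16 ± 0.163 RPKM after IAA. The one peak of the window that was called lay at the start of Mapkbp1, downstream of Mga (log2 change -0.56, limma adjusted p = 0.0328).

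**Figure D2:**
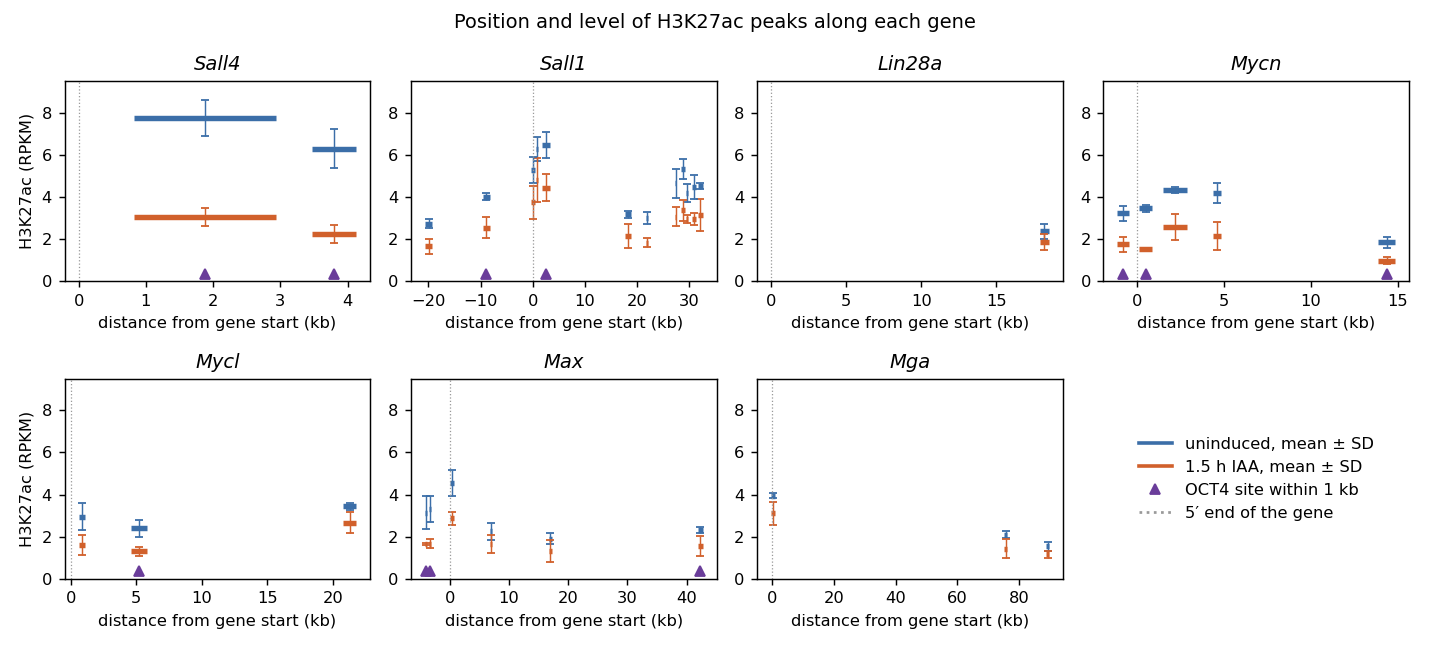
H3K27ac (RPKM, vertical axis) of every peak against the distance of the peak from the 5′ end of its gene (kb, horizontal axis), one panel per gene. Horizontal bars span the peak and stand at the mean of the 3 uninduced (blue) or 3 IAA (orange) libraries, vertical bars are SDs, and triangles are OCT4-marked peaks. The bars are farthest apart at Sall4, and the single peak in the Lin28a panel stands 18.19 kb from the start of that gene.

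In uninduced cells the order of the window means was Sall4, Sall1, Mycn, Max, Mycl, Mga and Lin28a. Of the neighbours in this order only Mycl and Mga had overlapping libraries. These means do not rank the total signal of the windows. That of Lin28a is the peak at Dhdds alone, and those of Mycl and Mga include peaks at Trit1 and Mapkbp1. After IAA the order was Sall1, Sall4, Mga, Max, Lin28a, Mycl and Mycn. Sall1 and Sall4 then overlapped (2.99 ± 0.369 and 2.84 ± 0.351 RPKM, SD, n = 3), and from Mga downwards each gene overlapped the next. Mycn went from the third level to the lowest (1.82 ± 0.294 RPKM).

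**Figure D3:**
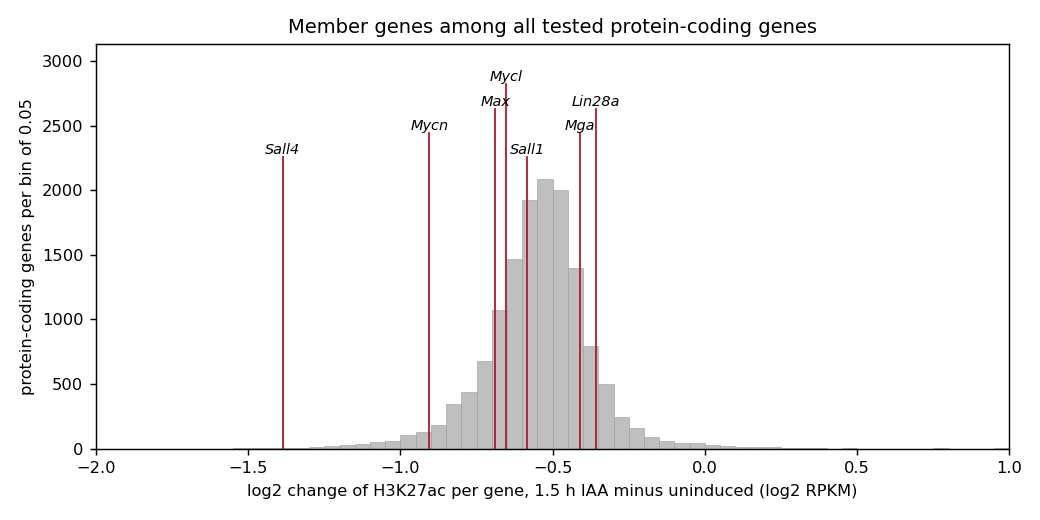
Number of protein-coding genes (vertical axis) by log2 change of H3K27ac after IAA (horizontal axis, bins of 0.05), for 14154 tested genes (grey) with the 7 genes as red lines. Sall4, at -1.39, lies in the far left tail, Mycn, at -0.90, at the left edge, and the other 5 genes within the main body, with Lin28a and Mga to the right of the median of -0.54.

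Of the 32 peaks, all of which passed the threshold of 0.5 RPKM, 26 were lower and 0 were higher by limma, against 68.2% lower and 0.0605% higher among the 26457 tested peaks. All 32 estimates were below 0, so 0 were higher at an unadjusted p under 0.05 too. The values of all IAA libraries lay below those of all uninduced libraries at 28 peaks, against 71.2% of tested peaks. The median log2 change was -0.62 over the 32 peaks and -0.55 over all tested peaks. With the libraries centred on the median tested peak, 2 peaks were lower and 0 higher, both lower ones at Sall4, against 520 lower (1.97%) and 144 higher among all tested peaks. At an unadjusted p under 0.05 these were 5 lower and 0 higher, against 8.83% lower and 5.41% higher among all tested peaks. The 6 peaks that were not called were the Lin28a peak at Dhdds, the Mycl peak at Trit1, both intronic Max peaks, the peak at the start of Mga and the intronic peak of Mapkbp1. Without uninduced replicate 1 the count fell to 17, the lost calls lying at Sall1, Max and Mga. Among all 26457 tested peaks the count then fell too, from 18048 to 10378. IAA replicate 3 was the lowest IAA library at 22 of the 32 peaks and IAA replicate 1 the highest at 18. Single peaks held 14 to 687 reads per library, and the counting error of the shallowest value was 26.7%.

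OCT4-marked peaks of these genes had a larger median change than unmarked ones. Marked and unmarked peaks come from different mixes of genes, so this also compares genes. Sall4 had only marked peaks, Lin28a and Mga only unmarked ones, and Sall1 had 12 peaks with 2 marked. At Sall1 the marked peaks (-0.54 and -0.66) lay within the range of the unmarked ones (-0.71 to -0.40). The ranges also overlapped at Mycl, at Mycn (-1.15 to -0.85 against -0.96 to -0.76) and at Max (-0.94 to -0.57 against -0.65 to -0.45). All 11 marked peaks were lower, against 85.2% of marked tested peaks, and 15 of the 21 unmarked ones, against 64.6% of unmarked tested peaks. The median log2 change was -0.85 for the marked and -0.56 for the unmarked peaks, beside -0.71 and -0.52 over all tested peaks. Within a library, where a factor common to all peaks cancels, the median of the marked peaks minus that of the unmarked ones was -0.25, -0.10 and -0.20 on the log2 scale before and -0.51, -0.52 and -0.34 after IAA, in replicates 1, 2 and 3. The groups did not overlap, and the difference between them of -0.27 stood beside -0.21 over all tested peaks. Of the marked peaks, 10 of 11 fell by more than the median peak, against 3457 of the 4662 marked tested peaks. The exception, with -0.54, was the Sall1 peak at 2.53 kb. Of the unmarked ones 11 of 21 fell by more, against 9545 of the 21795 unmarked tested peaks.

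**Figure D4:**
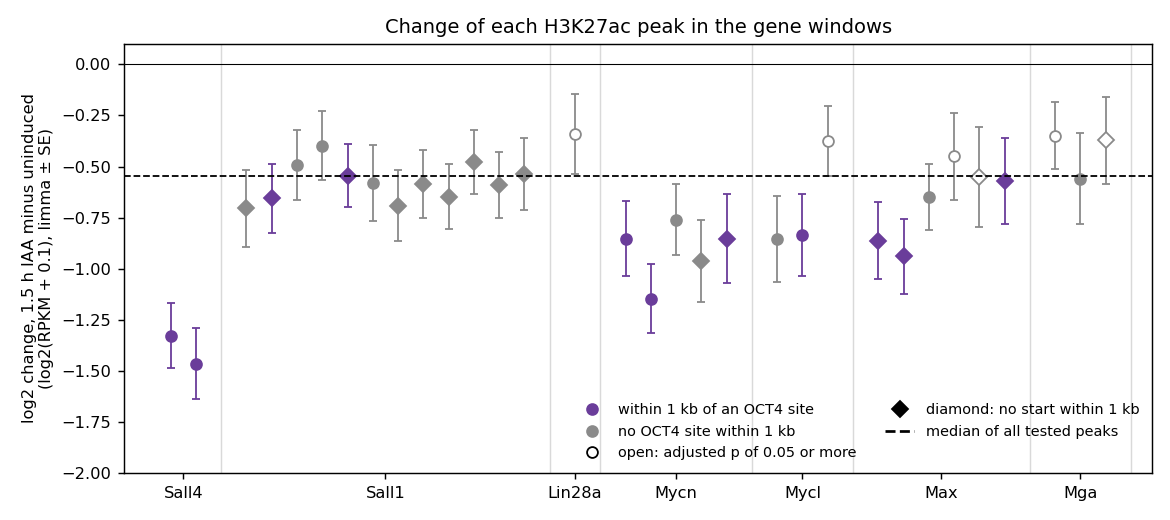
Log2 change after IAA (vertical axis, limma estimate ± SE from 3 against 3 libraries) of each of the 32 peaks, grouped by gene and ordered from upstream to downstream within a gene. Purple marks an OCT4 site within 1 kb, grey none, open symbols an adjusted p of 0.05 or more, diamonds no transcription start within 1 kb, and the dashed line the median of all tested peaks. All 11 purple symbols are filled, and the peaks at Sall4 lie lowest.

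At the level of genes, 23.95% of the tested genes had an OCT4-marked peak in the window, with a median log2 change of -0.62, and the others had a median of -0.52. Sall4, Sall1, Mycn, Mycl and Max had marked peaks, and Lin28a and Mga, the genes with the smallest changes, had none. The mark was given only to H3K27ac peaks, and the only peak of the Lin28a window lay at the start of Dhdds. OCT4 sites at Lin28a itself were therefore not assessed. Peaks within 1 kb of any transcription start and the other peaks numbered 16 each. The median of the first minus that of the second was -0.09 ± 0.135 (SD, n = 3) on the log2 scale in uninduced cells and 0.07 ± 0.126 after IAA, so the libraries overlapped, and the difference of 0.16 changed sign when means over peaks replaced medians (-0.055).

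The octamer ATGCAAAT, to which OCT4 and other POU proteins bind, and the E-box CACGTG, to which MYC and MAX dimers bind, were searched for on both strands in the central 300 bases of each tested peak. The octamer was in 0 of 32 peaks, against 1.13% of all tested peaks and 2.62% of OCT4-marked ones. The E-box was in the Sall1 peak at -19.96 kb and in the OCT4-marked Max peak at -4.08 kb, against 5.70% of all tested peaks. In windows widened to 1 kb on either side of each peak, a search added after the first result was seen, 2 of 32 peaks (6.25%) had an octamer, against 14.3% of all tested peaks and 25.5% of marked ones. One lies 200 bp outside the OCT4-marked Sall1 peak at 2.53 kb, in an intron of Sall1, and the other 180 bp outside the unmarked Max peak at 6.96 kb, in an intron of Max. A match to these letters is a description of the sequence and no evidence of binding. Both octamers are shown in capitals with the bases around them (RefSeq GRCm38.p6).
Sall1, chr8:89040616-89040675, plus strand: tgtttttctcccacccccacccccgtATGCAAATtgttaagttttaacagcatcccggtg
Max, chr12:76954809-76954868, plus strand: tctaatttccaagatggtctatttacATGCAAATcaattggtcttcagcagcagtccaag

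RefSeq promoters of the GRCm38.p6 build, covering 250 bases before and 50 after a start, were matched for 7 of the 9 genes, not for Sall4 and Myc. Among all 32851 RefSeq promoters 1.74% had the octamer and 7.15% the E-box. None of the promoters of these genes had the octamer, and Lin28b and Max had 1 E-box each, that of Max in the transcribed bases. The 250 upstream bases are shown for the Mga promoter and for the Sall1 promoter outside the gene, since a tested peak overlapped these bases. At the Max promoter and at a Sall1 promoter in an intron, a tested peak reached only the transcribed bases, which are not shown. Neither motif occurs in the sequences shown, so they are in lower case.
Mga promoter, chr2:119896978-119897227, plus strand: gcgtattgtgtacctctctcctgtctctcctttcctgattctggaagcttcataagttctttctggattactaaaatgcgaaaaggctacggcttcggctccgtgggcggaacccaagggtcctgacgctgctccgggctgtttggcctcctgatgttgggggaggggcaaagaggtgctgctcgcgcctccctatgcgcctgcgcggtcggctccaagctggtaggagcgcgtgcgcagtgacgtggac
Sall1 promoter outside the gene, chr8:89044163-89044412, minus strand: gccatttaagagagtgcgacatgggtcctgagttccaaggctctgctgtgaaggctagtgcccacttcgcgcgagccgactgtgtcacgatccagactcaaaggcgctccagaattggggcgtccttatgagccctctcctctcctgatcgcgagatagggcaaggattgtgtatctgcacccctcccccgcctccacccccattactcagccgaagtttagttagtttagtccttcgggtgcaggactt

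The genes whose pattern was most like that of each gene were found by the Euclidean distance between log2 window means over the 6 libraries, leaving out genes that share a peak. The nearest was Spry2, an inhibitor of receptor tyrosine kinase signalling, for Sall4, at a distance of 0.182 (7.36 RPKM in uninduced cells and 2.92 RPKM after IAA). It was Pou2f2, a POU factor related to OCT4, for Sall1, at 0.0515 (4.53 and 3.00 RPKM). Actn2, an actin cross-linking protein of muscle, was nearest to Mycn, at 0.165 (3.57 and 1.80 RPKM). For the remaining genes it was Shpk for Lin28a (0.229), Isoc2b for Mycl (0.104), Gigyf2 for Max (0.0846) and Wsb1 for Mga (0.0940).

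Genes of the same pathways were counted by the same test, by which 89.4% of all tested genes were lower, with a median log2 change of -0.54 over all tested genes. Of the other SALL genes, Sall3 had a log2 change of -1.19 (SE 0.199, limma adjusted p = 3.3e-07), from 2.3 ± 0.311 to 1.01 ± 0.183 RPKM at its single peak. Sall2 had one of -0.43 (limma adjusted p = 0.0285). The call at 1 of these 2 genes was lost without uninduced replicate 1, without uninduced replicate 2, without IAA replicate 2 and without IAA replicate 3. NuRD subunits, the deacetylase complex that SALL proteins recruit, were lower at 11 of 11 genes with a median of -0.56, from -0.82 at Mbd3, the subunit that holds the complex together, to -0.42 at Gatad2a. Genes of let-7 processing and the LIN28 axis were lower at 12 of 12 with a median of -0.61, from -0.80 at Dis3l2, the exonuclease that degrades uridylated pre-let-7, to -0.39 at Tut7, one of the terminal uridylyl transferases.

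Against the same 89.4% of all tested genes, partners in the MAX network were lower at 7 of 8 genes with a median of -0.54. Mlxip had the largest change (-0.64), and Mnt, a repressor that dimerizes with MAX, had -0.29 and missed the threshold (limma adjusted p = 0.0583). MYC coactivators were lower at 7 of 7 genes with a median of -0.56, from -0.73 at Ruvbl2, an ATPase of chromatin remodelling complexes, to -0.41 at Kat2a, a histone acetyltransferase. Of 10 genes for PRC1.6 subunits, the complex built on MGA, 9 were measured and 8 were lower, with a median of -0.44. They ranged from -0.74 at Rybp to -0.35 at Ring1. Rnf2 missed the threshold (limma adjusted p = 0.0653) and Tfdp1 had no peak. The PRC1.6 count was 5 without uninduced replicate 1, and 4 when either uninduced replicate 2 or IAA replicate 2 was left out. With the libraries centred on the median gene, 0 of the 49 measured genes of these 6 lists were called by limma, and 4 were lower and 4 higher at an unadjusted p under 0.05, against 7.31% lower and 5.91% higher among all tested genes.

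By comparison, ESC identity genes were lower at 8 of 8 with a median log2 change of -0.95, from -1.14 at Sox2 to -0.63 at Nanog, against 89.4% of all tested genes. When the libraries were centred on the median gene, 6 of the 8 were lower, against 1.37% of all tested genes. The change at Sall4 was larger than that at each of these 8 genes, and the change at Mycn lay within their range. Of the genes of other lineages, 4 of 11 were measured and 3 of these were lower, against the same 89.4%, from -0.76 at Pax6, while Mesp1 had a log2 change of 0.13 (limma adjusted p = 0.578).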

How the data were processed

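H3K27ac ChIP-seq of 3 uninduced and 3 IAA-treated IPs of O4AID ESCs was used. The authors aligned reads to GRCm38 with Bowtie 2 2.3.4.3, removed duplicates, pooled the 3 uninduced IPs to call peaks with MACS2, and deposited RPKM per peak and library, computed with DiffBind. Peaks that exist only after IAA could therefore not be in the list, and the list favours falls over rises. The deposited OCT4 mark comes from published OCT4 ChIP-seq.

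All values (100%) were whole multiples of the value of 1 read, within a tolerance of 0.01, which gave library sizes and read numbers per peak. The median tested peak held 57 to 73 reads in uninduced and 36 to 45 reads in IAA libraries. Peaks with a pooled RPKM of at least 0.5 in either condition were tested with limma 3.58.1 in R 4.3.3 (trend and robust) on log2(RPKM + 0.1), which understates changes of low peaks, with Benjamini-Hochberg adjustment at 0.05. Count models were not run, RPKM being normalized. Genes were tested likewise on the log2 of the length-weighted mean RPKM of the peaks in the window, with nothing added, where this mean was at least 0.5 in either condition. Genes that share peaks are not independent. In a simulation in which 200 features fell by 1 log2 unit, limma found 151 among 26457 peaks (14 false calls) and 190 among 14154 genes (13 false calls). Its noise was independent between features and only 200 changed, whereas here most features shifted together by library. These numbers are therefore not error rates of the calls given here. For single genes an exact permutation test (two-sided, 20 labellings, smallest p 0.1) was added, and this p was reached at each gene except Lin28a. Sequences were read with pysam 0.24.0.

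The genes and lists were chosen with earlier results of these data known, so no p over a list is given. All peaks in the windows were described, with the gene of most similar pattern to each gene and, from each list, the genes with the largest fall and the smallest change. The alternatives tried were other pseudocounts, thresholds, windows, centring, quantile normalization, limma settings, the replicate number as a block, and leaving out each library. Coordinates of peaks are as deposited.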

Additional observations from a re-analysis of the deposited data

How the results depend on the processing

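Of 272 values under alternatives, 231 were classed as the same. These kept their direction and their side of the threshold, or moved by less than the spread, but counts among them could lose calls. Without uninduced replicate 1, for example, a count of 5 genes lower was classed as the same as 7. The count of 26 peaks lower was 2 with libraries centred on the median peak, 2 with quantile normalization, 17 (of 21 peaks) in windows of 5 kb and 42 (of 52) in windows of 50 kb, which then reached Myc, and 17 to 30 without each library in turn. Among the 26457 tested peaks the count without each library in turn ran from 10378 to 19611. The count of 7 genes lower was 1 with libraries centred on the median gene and 5 to 7 without each library. The count of 0 peaks higher held under each alternative, all of which used peaks called on the uninduced IPs alone. Such a list favours falls, so this count is no test of gains. The median change over genes (-0.65) was -0.79 without peaks near another gene's start and -0.74 to -0.50 without each library, the latter without IAA replicate 3. Relative to the median peak it was -0.07, and -0.14 in 5 kb windows, -0.017 in 50 kb windows, -0.094 with unweighted means, -0.21 without peaks near another gene's start and -0.11 to -0.016 without each library. The OCT4-marked minus unmarked difference (-0.27) was -0.17 with a pseudocount of 1. The promoter minus distal difference (0.16) turned to -0.036 in 50 kb windows and to -0.055 with means over peaks. Relative to the median peak the direction at Lin28a (0.22) and Mga (0.17) turned. The cause of these shifts was not tested.

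Deviations of same-numbered libraries had correlations across peaks of -0.014, -0.091 and -0.061. A correlation across peaks leaves out a shift common to a whole library, so it cannot decide whether the replicate numbers pair the samples. The log2 of the median tested peak fell from replicate 1 to 3 in both groups. It was 1.33, 1.31 and 1.24 in the uninduced and 0.87, 0.74 and 0.52 in the IAA libraries. With a replicate block 29 member peaks and 7 genes were lower. Among the 26457 tested peaks 18898 were lower with the block, against 18048 without it. No library correlated best with its own number. Depth limits the small peaks, down to 14 reads.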
